A study of Saccharomyces cerevisiae with 12 samples.

Results

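The genes described here encode the Sur7 family of plasma membrane proteins (SUR7, FMP45, YNL194C and PUN1) and the core proteins of the eisosome (PIL1 and LSP1) of the budding yeast Saccharomyces cerevisiae. Their locus tags are YML052W (SUR7), YDL222C (FMP45), YLR414C (PUN1), YGR086C (PIL1) and YPL004C (LSP1), and YNL194C goes by its own. They are 6 of the 5449 genes tested. The members were chosen by family, and a gene with several probe sets was to be read by the brightest one. Each of the 6 had 1 probe set, so no measured level entered that choice, although the set was put together with earlier results of these data known.

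Eisosomes are protein assemblies on the inner face of the yeast plasma membrane. They lie under furrow-like invaginations known as the membrane compartment of Can1 (MCC), which hold nutrient permeases, the Sur7 family and sensors of membrane tension. Pil1 and Lsp1 are paralogous BAR domain proteins that coat the furrow and bend the membrane. Sur7, Fmp45, Ynl194c and Pun1 are tetraspan membrane proteins that sit within the furrow and have been linked to sphingolipid content, sporulation and the integrity of the cell wall.

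Transcript levels came from 12 Affymetrix yeast arrays in 4 groups of 3. Both strains had the BY4741 background, a haploid laboratory strain of mating type a that carries deletions in HIS3, LEU2, URA3 and MET17, and 1 of them was also mutated in PAT1. Pat1 promotes the decapping and decay of mRNAs that have lost their poly(A) tails. Exponentially growing cells of each strain were grown for 2 h with no addition or in Congo Red at 30 µg/ml. This dye attaches to chitin and glucan chains and so disturbs the assembly of the wall. Each biological sample supplied an array without and an array with the dye, so arrays of the same strain and number are a pair. The labels do not say how the mutation was made or whether the mutant was 1 clone. RNA came from whole cultures, so more cells expressing a gene and more RNA per cell cannot be told apart.

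Values are log2 signals, in which a difference of 1 is a factor of 2. Levels of different genes are not compared, except that the signal of deleted genes is given as a view of the background, which can differ between probe sets. PAT1 gave 10.50 to 10.93 on the wild type arrays and 2.95 to 3.94 on the pat1 arrays, which overlaps the 2.95 to 4.20 of the deleted genes LEU2 and MET17. URA3 lay between 2.94 and 3.27 on 10 arrays, but at 7.71 on wild type sample 2 with Congo Red and at 6.76 on pat1 sample 1 without drug. Those 2 arrays go against their labels for this marker, so the calls of the 6 genes, and the strain differences of PIL1, are also given without them. Genes specific to mating type a had mean signals of 11.87 to 12.41 per array and those specific to alpha cells 5.87 to 6.63. Of the latter, STE3, the a-factor receptor gene, was higher in pat1 than in wild type without drug (by 1.26, limma adjusted p = 0.0380). The alpha mean does not hold for each gene of that list. SAG1 had group means of 8.77 to 9.22 and MF(ALPHA)1 of 4.04 to 4.59.

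PUN1 was the only one of the 6 called for Congo Red, and it rose in both strains. FMP45 and YNL194C were higher in pat1 than in wild type without drug, although none of the 12 fits that left out 1 array called both. PIL1 was higher on all 6 pat1 arrays than on all 6 wild type arrays, by a smaller step that did not pass the test over all genes. SUR7 and LSP1 passed in no comparison.

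**Figure D1:**
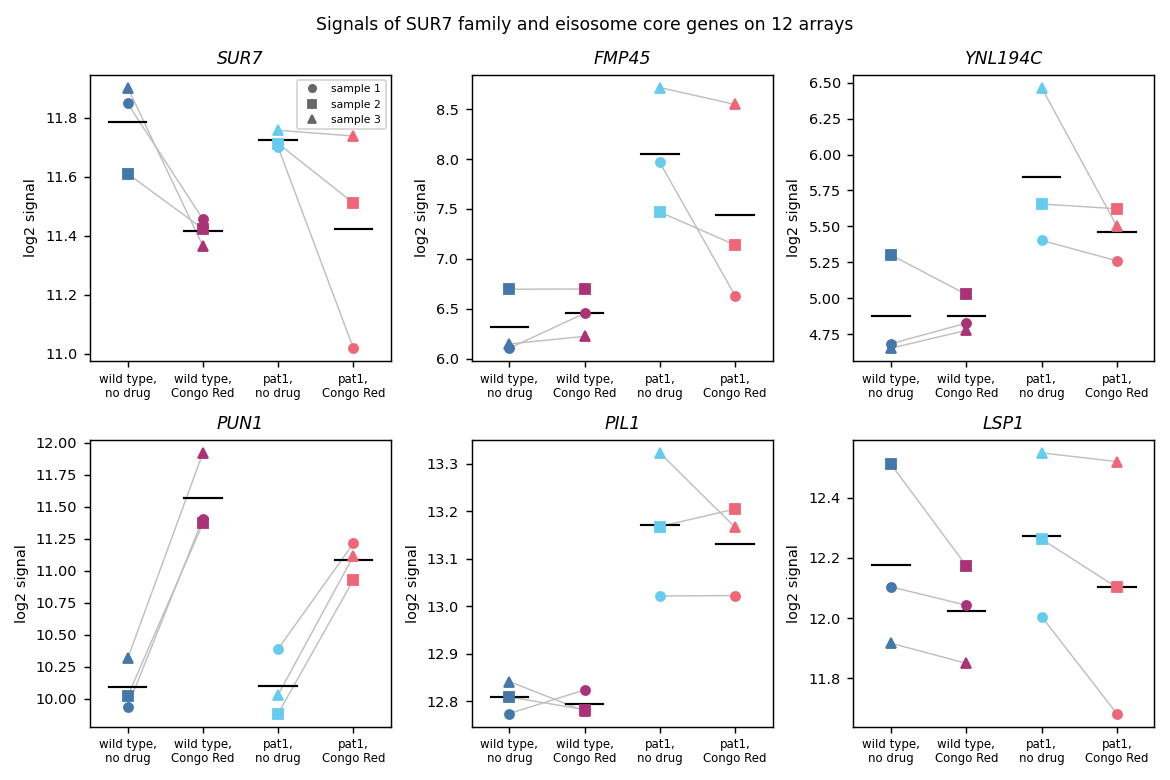
Log2 signal (vertical axes, scaled per gene) of each gene on the 12 arrays by group. Symbols mark the sample number, grey lines join the arrays of 1 biological sample and black bars are group means (n = 3). PUN1 rises along every line, PIL1 separates the strains, and FMP45 lies highest in pat1 sample 3.

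PIL1 encodes the more studied of the core coat proteins, needed for normal eisosome number and shape. Its signal in wild type was 12.77, 12.81 and 12.84 in samples 1, 2 and 3 without drug and 12.82, 12.78 and 12.78 with Congo Red. In pat1 it was 13.02, 13.17 and 13.32 without drug and 13.02, 13.20 and 13.17 with the dye. The strains thus did not overlap, and within each strain the arrays with and without dye did.

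Congo Red moved PIL1 by -0.013 ± 0.099 (SE, n = 3 arrays per group) in wild type, with a 95% interval of -0.23 to 0.20. In pat1 the dye moved it by -0.040 ± 0.099, with an interval of -0.26 to 0.18. Between the strains PIL1 differed by 0.36 ± 0.10 without drug, a 1.29-fold higher signal in pat1, and this missed the threshold (limma adjusted p = 0.0525). With Congo Red the difference was 0.34 ± 0.10, or 1.26-fold (adjusted p = 0.0674). Several settings brought PIL1 past the threshold: without drug these were arrays centred on their medians (adjusted p = 0.0386), cyclic loess (0.0264), the dimmest genes left out (0.0430) and a trended robust variance (0.0208). With Congo Red they were cyclic loess (0.0432), a trended robust variance (0.0245) and the fit without pat1 sample 1 without drug (0.0453). Without the arrays with URA3 signal the differences were 0.44 without drug (adjusted p = 0.0710) and 0.33 with it (adjusted p = 0.108). Other settings weakened the difference, to as little as 0.29 without drug and 0.28 with it. The highest limma adjusted p under them was 0.215 without drug and 0.203 with it. Of the 12 fits that left out 1 array, 0 called PIL1 without drug.

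LSP1, the paralog of PIL1, spread more between samples. In wild type it gave 12.10, 12.51 and 11.92 without drug and 12.04, 12.17 and 11.85 with Congo Red. The pat1 values were 12.01, 12.26 and 12.55 without drug and 11.68, 12.10 and 12.52 with the dye. All 4 groups overlapped, while within each biological sample the treated array was the lower one, in 6 of 6 samples, by 0.029 to 0.34.

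The mean change of LSP1 was -0.16 ± 0.22 in wild type (limma adjusted p = 0.890) and -0.17 ± 0.22 in pat1 (adjusted p = 1.00). With a replicate block for the biological samples, the SE in wild type was 0.089 (limma unadjusted p = 0.117, adjusted p = 0.291). In pat1 the lowest limma adjusted p under any alternative was 0.366. Between strains LSP1 differed by 0.095 ± 0.22 without drug and by 0.080 ± 0.22 with it. The responses of both paralogs were compared within samples. That of PIL1 exceeded that of LSP1 by 0.14 ± 0.18 (SD, n = 6 samples), with the higher value in 5 of 6 (exact two-sided sign-flip permutation p = 0.156, adjusted p = 0.313 over 2 paralog pairs, smallest possible p = 0.0313).

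SUR7 is the founding member of its family and a standard marker of the MCC. Its signal was 11.85, 11.61 and 11.90 in wild type without drug and 11.46, 11.42 and 11.37 with Congo Red. In pat1 it was 11.70, 11.71 and 11.76 without drug and 11.02, 11.51 and 11.74 with the dye. The wild type groups did not overlap, the pat1 groups did, and the treated array was the lower one in 6 of 6 samples, by 0.019 to 0.68.

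The change of SUR7 was -0.37 ± 0.16 in wild type (95% interval -0.72 to -0.027; limma unadjusted p = 0.0369, adjusted p = 0.344). In pat1 it was -0.30 ± 0.16 (interval -0.65 to 0.044; adjusted p = 0.988). Neither passed the test over all genes. With a replicate block for the biological samples, limma gave an unadjusted p of 0.0159 and an adjusted p of 0.0824 in wild type. In pat1 the change did not pass with the block either. The strains differed by -0.064 ± 0.16 without drug and by 0.0076 ± 0.16 with Congo Red, and the latter value turned to -0.045 with arrays centred on their medians and to -0.034 with cyclic loess. In order of level, SUR7 was lowest in wild type with dye, then pat1 with dye, pat1 without and wild type without, and all neighbours in that order overlapped.

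FMP45 encodes a tetraspan protein of the MCC first listed among mitochondrial proteins and linked to sporulation and sphingolipid content. Wild type signals were 6.11, 6.70 and 6.15 without drug and 6.46, 6.70 and 6.22 with Congo Red. The pat1 signals were 7.97, 7.47 and 8.72 without drug and 6.63, 7.14 and 8.55 with the dye. Without drug every pat1 array lay above every wild type array; with drug, pat1 sample 1 fell among the wild type arrays.

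Without drug FMP45 was 3.32-fold higher in pat1 (1.73 ± 0.43, SE, n = 3 arrays per group; limma adjusted p = 0.0407). With Congo Red the difference was 0.98 ± 0.43 (adjusted p = 0.194). The call without drug was lost when only both untreated groups were fitted (adjusted p = 0.0749), when the arrays with URA3 signal were left out (1.78, adjusted p = 0.103), and in 9 of the 12 fits that left out 1 array. Those were each wild type array, pat1 samples 1 and 3 without drug and pat1 sample 2 with dye, at adjusted p from 0.0527 to 0.125 and differences of 1.40 to 1.92.

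YNL194C is the paralog of FMP45 and has been placed in the same compartment. In wild type it gave 4.68, 5.30 and 4.65 without drug and 4.83, 5.03 and 4.78 with Congo Red, with the deleted genes at 2.95 to 4.20 on their own probe sets. In pat1 it gave 5.40, 5.66 and 6.47 without drug and 5.26, 5.62 and 5.50 with the dye. Every pat1 array lay above every wild type array of the same treatment, although the lowest pat1 value without drug exceeded the highest wild type value by little.

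The difference was 0.96 ± 0.25 without drug, or 1.95-fold (limma adjusted p = 0.0473), and 0.58 ± 0.25 with Congo Red (adjusted p = 0.185). The call without drug was lost with cyclic loess (0.87, adjusted p = 0.0514), with both untreated groups alone (adjusted p = 0.157) and without the arrays with URA3 signal (1.18, adjusted p = 0.0553). It was also lost in 10 of the 12 fits that left out 1 array, at adjusted p from 0.0556 to 0.154 and differences of 0.65 to 1.05; the exceptions were wild type sample 2 and pat1 sample 1, both without drug.

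Congo Red did not move FMP45 or YNL194C past the test in either strain. FMP45 changed by 0.14 ± 0.43 in wild type and by -0.61 ± 0.43 in pat1, and YNL194C by -0.0023 ± 0.25 and -0.38 ± 0.25 (limma adjusted p from 0.957 to 1.00). These errors leave out the pairing of the arrays. With the replicate block the SE in wild type was 0.19 for FMP45 and 0.17 for YNL194C (limma adjusted p = 0.682 and 0.995). In pat1 the lowest limma adjusted p under any alternative was 0.154 for FMP45 and 0.286 for YNL194C. Leaving out 1 array moved the change in pat1 between -1.16 and -0.21 for FMP45 and between -0.60 and -0.067 for YNL194C. By sample, FMP45 responded by 0.35, 0.0025 and 0.076 in wild type and by -1.33, -0.33 and -0.17 in pat1. For YNL194C these responses were 0.14, -0.27 and 0.12 in wild type and -0.14, -0.033 and -0.96 in pat1, so the largest decrease fell in sample 1 for one paralog and in sample 3 for the other. The responses of the pair differed by -0.043 ± 0.67 (SD, n = 6 samples; FMP45 minus YNL194C; exact two-sided sign-flip permutation p = 0.844, adjusted p = 0.844), with 3 of 6 samples in each direction.

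FMP45, and less regularly YNL194C, moved with the level of general stress transcripts between arrays. The 24 listed stress genes had a mean signal per array of 9.61, 10.56 and 9.53 in wild type without drug and of 9.80, 10.50 and 9.80 with Congo Red. In pat1 the means were 10.34, 10.47 and 11.39 without drug and 10.16, 10.26 and 11.13 with the dye. In each of the 4 groups the array with the highest stress mean was also the highest for FMP45 and for LSP1, and in 3 of 4 groups for YNL194C, against 1 of 4 for PIL1. That array came from the same biological sample in both groups of a strain, so the 4 groups are not independent. Without drug 4 of the 24 were called higher in pat1, against 3.51% of all genes, and none lower: CTT1, the cytosolic catalase gene (1.92), GLK1, a glucokinase gene (0.73), HOR7 (0.67) and SOD2, the mitochondrial superoxide dismutase gene (0.55). The median change of the list was 0.70, against -0.014 over all genes. The part of these transcripts in the strain difference of FMP45 and YNL194C was not tested.

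**Figure D2:**
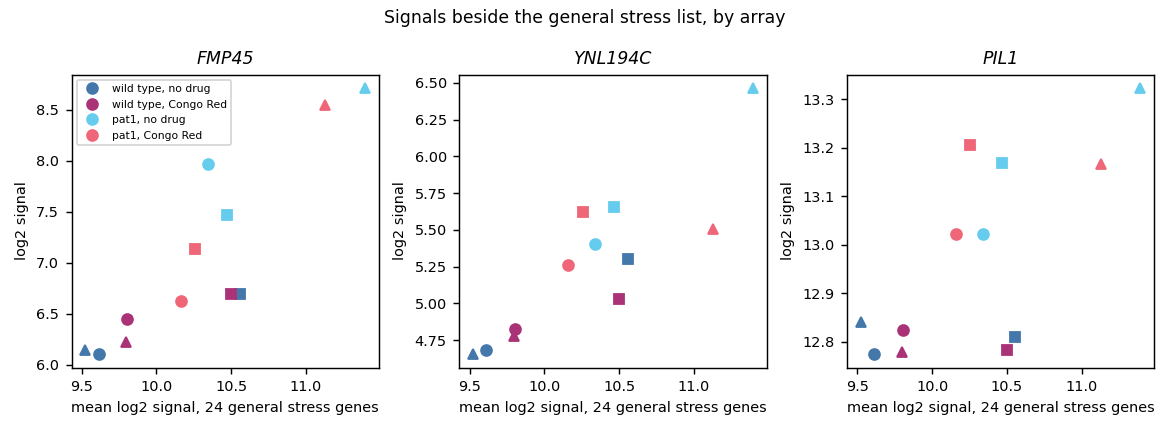
Log2 signal of FMP45, YNL194C and PIL1 (vertical axes) against the mean log2 signal of 24 general stress genes (horizontal axes), 1 point per array. Colours mark the groups, and circles, squares and triangles mark samples 1, 2 and 3. FMP45 is highest where the list mean is highest, at 11.39 and 11.13 in pat1 sample 3, whereas PIL1 falls into a wild type and a pat1 level.

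Wild type sample 2 and pat1 sample 3 carried the highest stress means of their strains with and without dye. When all 4 arrays of these samples were left out, FMP45 was 1.59 higher in pat1 without drug (limma adjusted p = 0.0130) and YNL194C 0.86 higher (adjusted p = 0.0328). The stress mean still differed between the strains by 0.84 in the remaining arrays, as over all arrays (0.84), so these values do not separate the genes from the stress transcripts.

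PUN1 encodes a plasma membrane protein named for its rise under nitrogen stress, found in the MCC and needed for a normal wall under stress. In wild type it went from 9.94, 10.02 and 10.31 without drug to 11.41, 11.37 and 11.92 with Congo Red. In pat1 it went from 10.39, 9.88 and 10.03 to 11.21, 10.93 and 11.11. The treated arrays lay above the untreated ones in both strains, with no overlap.

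The rise of PUN1 was 2.78-fold in wild type (1.48 ± 0.18, SE, n = 3 arrays per group; limma adjusted p = 0.000795) and 1.98-fold in pat1 (0.98 ± 0.18; adjusted p = 0.0296). By sample it was 1.47, 1.35 and 1.61 in wild type and 0.82, 1.04 and 1.08 in pat1, so the smallest wild type response exceeded the largest of pat1. Without the arrays with URA3 signal the rise was 1.57 in wild type (adjusted p = 0.00151) and 1.13 in pat1 (adjusted p = 0.0310). The call in wild type held in every alternative run. In pat1 it was lost with cyclic loess (0.93, adjusted p = 0.0676), with the 2 pat1 groups alone (adjusted p = 0.105), without wild type sample 2 and pat1 sample 3 (0.93, adjusted p = 0.386) and without any 1 of these pat1 arrays: samples 2 and 3 without drug and samples 1, 2 and 3 with dye (0.88 to 1.06, adjusted p from 0.0639 to 0.160).

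Without drug the strains overlapped in PUN1, with a difference of 0.010 ± 0.18 (95% interval -0.38 to 0.40). With Congo Red the pat1 arrays all lay below the wild type arrays, by 0.48 ± 0.18 (pat1 minus wild type -0.48; interval -0.87 to -0.090; limma adjusted p = 0.130). The difference between the responses was -0.49 ± 0.25 (unadjusted p = 0.0764, adjusted p = 1.00), and with a replicate block for the biological samples its unadjusted p was 0.00279 and its adjusted p 0.232. PUN1 was thus not shown to respond less in the mutant at the threshold used. Among 22 listed cell wall integrity genes, 18 were called higher with Congo Red in wild type, against 2.44% of all genes. In pat1 11 were, against 0.661%, and none was called lower in either strain. Their median changes were 1.31 and 0.85. Their difference in response was positive in 2 of 22 (median -0.36, against 0.058 over all genes), and none was called, against 0% of all genes.

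**Figure D3:**
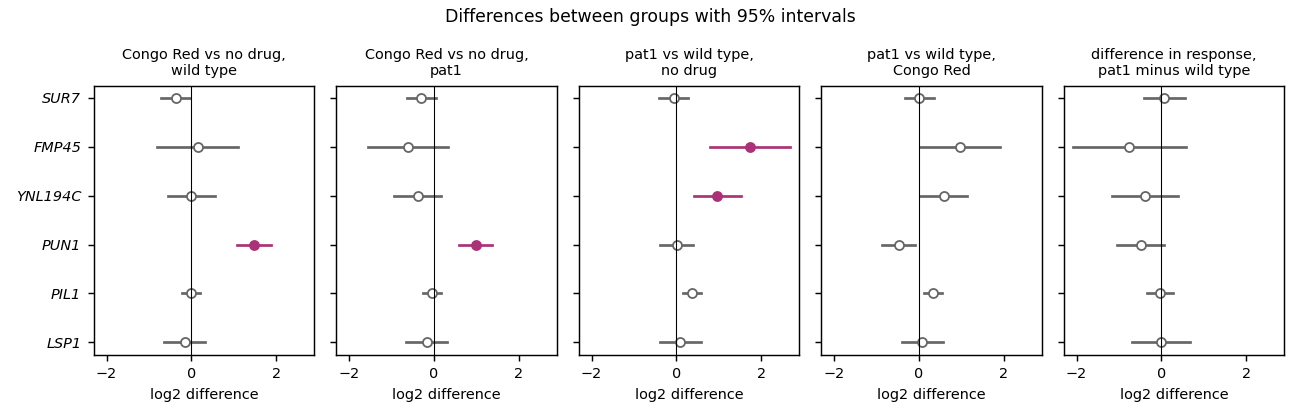
Log2 differences (horizontal axes) of the 6 genes in 5 comparisons, with 95% intervals of the limma fit. Filled symbols passed at an adjusted p under 0.05: PUN1 for Congo Red in wild type (1.48) and pat1 (0.98), and FMP45 (1.73) and YNL194C (0.96) for pat1 against wild type without drug.

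Counted over the group, 1 of the 6 genes was called for Congo Red in wild type, where 2.68% of all genes were, and 2 of 6 had groups that did not overlap, PUN1 and SUR7, against 20.7% of all genes. For Congo Red in pat1 the member called was again 1 of 6, against 0.661% of all genes, and the same single gene, PUN1, had groups that did not overlap, against 8.15%. Without drug, 2 of 6 were called between the strains, where 6.44% of all genes were called in either direction and 3.51% were called higher in pat1. In that comparison 3 of 6 did not overlap, PIL1 being the third, against 26.9%. With Congo Red no member was called between the strains by limma, against 6.44% of all genes, although 4 of 6 had an unadjusted p under 0.05, against 23.7% of all genes, and 1 passed under cyclic loess or a trended robust variance; 3 of 6 did not overlap, against 29.7%. For the difference in response none of the 6 and 0% of all genes passed, none of the 6 had an unadjusted p under 0.05, against 2.39% of all genes. With the replicate block 2 of 6 did, PUN1 and FMP45, against 12.1%. With the replicate block 769 genes (14.1%) were called for Congo Red in wild type, 126 (2.31%) in pat1 and 3 for the difference in response, and PUN1 was still the only member called. The strain comparisons share arrays with the responses to the dye, so their counts are not independent.

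The likeness of patterns over the 12 arrays was described with Pearson's r, without a test, since the arrays of a sample and a strain share their source. Closest to PUN1 were COM2, a transcription factor gene linked to sphingolipid synthesis (r = 0.979), the yapsin protease gene YPS1 (0.974) and DFG5, a putative wall mannosidase gene (0.973). DFG5 rose by 1.18 in wild type and 0.84 in pat1, YPS1 had changes of 1.34 and 0.76, and COM2 of 0.84 and 0.61. FMP45 was most like CTT1 (0.981), which is 1 of the stress genes above, JAC1, a mitochondrial co-chaperone gene of iron-sulfur cluster assembly (0.957), and the vacuolar copper transporter gene CTR2 (0.953).

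YNL194C was most like FMP32, a mitochondrial protein gene (r = 0.976), SIP18, a gene of the desiccation response (0.939), and MIC12, a gene of the mitochondrial contact site complex (0.930). For PIL1 the closest genes were ZIM17, a mitochondrial chaperone gene (0.958), the uncharacterised YEL073C (0.952) and again FMP32 (0.950). LSP1 was closest to the mitochondrial ribosomal gene MRPS17 (0.951), the cytochrome c gene CYC1 (0.932) and YNL134C (0.932). SUR7 was closest to the uncharacterised YMR209C (0.938), the cyclin gene CLB6 (0.930) and KEI1, which encodes the regulatory subunit of inositol phosphorylceramide synthase (0.885). Among the 6 genes themselves the highest r values were 0.898 for YNL194C and PIL1, 0.860 for FMP45 and YNL194C and 0.838 for FMP45 and PIL1, while that of the paralogs PIL1 and LSP1 was 0.401 and that of SUR7 and PUN1 was -0.692.

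Of 15 other eisosome and MCC genes none was called for Congo Red in either strain without the replicate block. Over all genes 2.68% were called in wild type and 0.661% in pat1. The medians of the 15 were -0.022 in wild type and 0.010 in pat1, against -0.029 and 0.041 over all genes. The lowest value in wild type was that of NCE102, which encodes a sphingolipid sensor of the MCC, at -0.55 ± 0.17 (limma adjusted p = 0.149), with -0.26 ± 0.17 in pat1. With the replicate block, an alternative added for these lists after seeing the data, 14.1% of all genes were called in wild type. NCE102 was the 1 of 15 called there (limma adjusted p = 0.00207). In pat1 the block called 2.31% of all genes and none of the 15 (NCE102 at adjusted p = 0.123). Between the strains without drug 1 was called higher and 2 lower in pat1, where 6.44% of all genes were called. PKH1, a kinase gene that acts on Pil1 and Lsp1, was higher by 0.43 ± 0.11 (adjusted p = 0.0450), and its paralog PKH2 was lower (-0.41 ± 0.10, adjusted p = 0.0374). XRN1, the gene of the 5' to 3' exonuclease that gathers at eisosomes in resting cells, was lower too (-0.56 ± 0.10, adjusted p = 0.0154). With Congo Red, where again 6.44% of all genes were called, PKH1 (0.45) was called higher and XRN1 (-0.47) lower. PKH2 was not called there (-0.30, limma adjusted p = 0.0930). The paralogous kinase genes were thus called in opposite directions between the strains without drug, both near the threshold. Whether these strain calls hold under the alternatives was not tested.

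**Figure D4:**
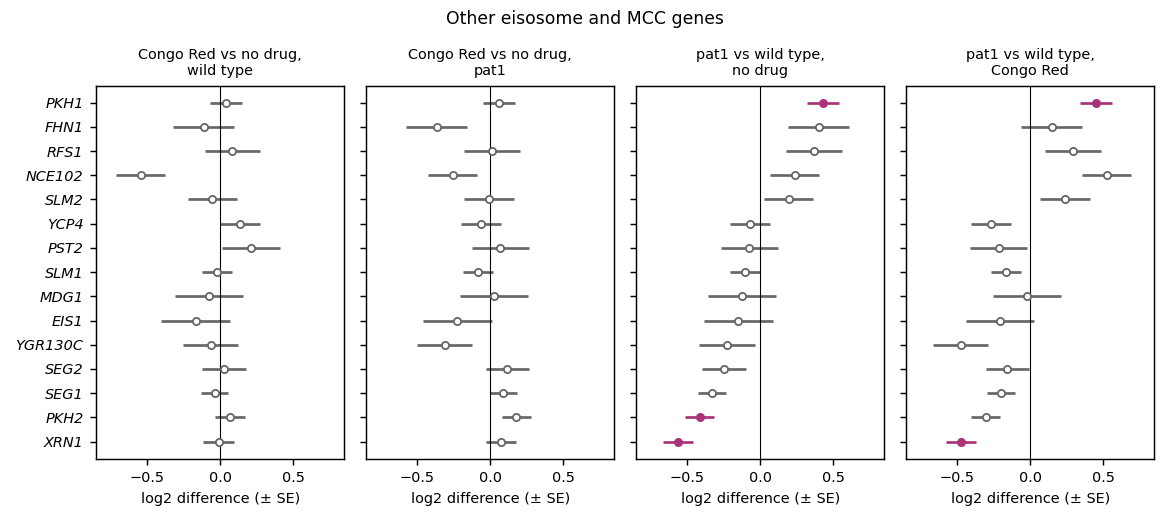
Log2 differences ± SE (horizontal axes) of 15 other eisosome and MCC genes in 4 comparisons, without the replicate block. Filled symbols passed at an adjusted p under 0.05: PKH1, PKH2 and XRN1 between the strains without drug, and PKH1 and XRN1 with Congo Red.

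Of 5 permease genes of the MCC none was called for the dye, where 2.68% of all genes were called in wild type and 0.661% in pat1. LYP1, the lysine permease gene, was the 1 called between the strains with Congo Red, where 6.44% of all genes were called. It was higher in pat1 by 0.72 ± 0.13 (limma adjusted p = 0.0117). Without drug LYP1 differed by 0.47 ± 0.13 (adjusted p = 0.0547). Of 24 sphingolipid genes 2 were called higher with Congo Red in wild type, against 2.44% of all genes, and none lower. They were SUR1, a catalytic subunit of mannosylinositol phosphorylceramide synthesis (1.02 ± 0.16, adjusted p = 0.00431), and IPT1, which makes the most complex sphingolipid of yeast (0.70 ± 0.17, adjusted p = 0.0484). In pat1 SUR1 changed by 0.64 ± 0.16 and IPT1 by 0.41 ± 0.17, neither past the test. With the replicate block 4 of the 24 were called higher in wild type, where 14.1% of all genes were called in either direction. ORM2 (0.42) and LCB5 (0.38) were those besides SUR1 and IPT1. In pat1 SUR1 alone was called (limma adjusted p = 0.00324), where 2.31% of all genes were. The median of the 24 was -0.068 in wild type and 0.11 in pat1. LCB3, a long-chain base phosphatase gene, was the 1 of 24 called between the strains. It was higher in pat1 with Congo Red (0.80 ± 0.13, limma adjusted p = 0.00625), where 6.44% of all genes were called.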

How the data were processed

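The authors deposited log2 signals per probe set, made with RMA (no version named) per the submitters' processing notes. The deposited table covers 5739 probe sets on 12 arrays, and array medians over genes ran from 9.53 to 9.70. Probe sets were given symbols from the platform annotation, updated through Entrez numbers with the RefSeq R64 gene table; 241 without a gene were left out, and the brightest was kept for 47 genes with several. No genome build was named, so coordinates are not printed. Promoter motifs were not analysed here.

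The deposited log2 values were fitted with limma 3.58.1 in R 4.3.3 (lmFit, eBayes, 4 group means, 12 arrays), with Benjamini-Hochberg adjustment over 5449 genes, and called at an adjusted p under 0.05. The steps were tested on simulated data. The simulated arrays were drawn independently, with known changes read only for Congo Red in wild type. They thus cannot show error rates for paired arrays or for the strain comparisons. Pairing was checked on deviations from group means: same-numbered arrays of a strain correlated at 0.616 to 0.801, other numbers at 0.231 or less. The design text ties each pair to 1 biological sample, so a replicate block was run as an alternative. Others were median centring, cyclic loess, leaving out the dimmest 25%, trended robust variances, only the 2 groups compared, mean probe sets, the arrays with a URA3 signal above 5 or the samples with high stress genes left out, and each array left out. Named genes were the 6 members, the 3 closest by Pearson's r and called or extreme members of lists written from general knowledge. Members, lists and rules were chosen with earlier results of these data known. Without the replicate block, limma p-values treat the 12 arrays as independent, so both arrays of a biological sample count separately in the spread. There were 3 biological samples per strain, and the number of arrays limits the precision. Figures were drawn with matplotlib 3.10.9 in Python 3.11.15.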

Additional observations from a re-analysis of the deposited data

Results flagged for a closer look

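FMP45 changed with opposite signs between the strains, although neither response to Congo Red passed the test: the array with dye was higher in 3 of 3 wild type samples, by 0.0025 to 0.35, and lower in 3 of 3 pat1 samples, by 0.17 to 1.33 (log2 signal). The responses differed by -0.75 (pat1 minus wild type), and this difference did not pass the limma test (adjusted p = 1.00, and unadjusted p = 0.0224 and adjusted p = 0.348 with the replicate block). It ran from -1.31 to -0.35 when 1 array was left out and was -0.68 without the arrays with URA3 signal. The smallest wild type response, 0.0025 in sample 2, is near 0, and that sample's array with dye is 1 of the arrays with URA3 signal. The largest decrease, -1.33 in pat1 sample 1, rests on the other such array. Opposite signs were not particular to FMP45. The 24 general stress genes had a median change with Congo Red of 0.11 in wild type, with 16 positive. In pat1 it was -0.21, with 5 positive, and over all genes the medians were -0.029 and 0.041. For CTT1, the gene most like FMP45 in pattern, the changes were 0.048 and -0.54. The part of these transcripts in the responses of FMP45 was not tested.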

How the results depend on the processing

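Over the 6 genes and 5 comparisons, 527 values under the alternatives kept direction and call, 36 turned in sign, 7 passed the threshold and 32 lost a call. Part of the agreement in direction was fixed in advance. Each of the 6 had 1 probe set, so mean probe sets gave the same values. The replicate block, the trended robust variance and the fits of only 2 groups also keep each log2 difference. Leaving out an array outside a comparison does so too. The 527 are therefore not a measure of robustness. The calls lost and gained are given with each gene; beyond what the construction of an alternative changes (fewer genes or arrays), the cause was not tested. FMP45 and YNL194C were among the dimmest 25% and had no value where those were left out. The replicate block changed no call among the 6 genes, but called NCE102, ORM2 and LCB5 in wild type and SUR1 in pat1 among the eisosome, permease and sphingolipid genes; it raised all genes called to 769 for Congo Red in wild type (146 without it), 126 in pat1 (36) and 3 for the difference in response (0). For Congo Red in wild type, PIL1 turned to 0.0073 with cyclic loess, and YNL194C to 0.0068 with centred arrays and to 0.13 when wild type sample 2 and pat1 sample 3 were left out. In pat1, leaving out these samples turned PIL1 to 0.019, and for the difference in response to 0.025. Members called in pat1 fell to 0 with cyclic loess, with only 2 groups and without these samples, and all genes called to 22, 11 and 12. Between the strains without drug, PUN1 turned to -0.13 without the arrays with URA3 signal. Members called there were 1 without the dimmest genes, 0 with only 2 groups and 0 without the URA3 arrays, and all genes called were 24 with only 2 groups, 89 without the URA3 arrays and 169 without wild type sample 2 and pat1 sample 3 (351 as reported). With Congo Red, SUR7 turned to -0.045 with centred arrays, -0.034 with cyclic loess and -0.15 without wild type sample 2 and pat1 sample 3, and LSP1 to -0.054 in the last. Members called there were 1 with cyclic loess and 1 with the trended robust variance, PIL1 in both, and all genes called were 210 with only 2 groups, 196 without the URA3 arrays and 113 without wild type sample 2 and pat1 sample 3. Without both samples that hold a URA3 array, the response of FMP45 minus that of YNL194C turned to 0.16.

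Leaving out each array in turn gave these ranges. For Congo Red in wild type they were -0.29 to 0.012 for LSP1, -0.030 to 0.0034 for PIL1 and -0.12 to 0.21 for YNL194C, with 72 (without wild type sample 3 with dye) to 161 genes called. In pat1 they were -0.38 to 0.039 for LSP1 and -0.11 to 0.036 for PIL1, with 0 to 1 members and 13 (without pat1 sample 1 with dye) to 39 genes called. Between the strains without drug they were -0.043 to 0.26 for LSP1 and -0.13 to 0.12 for PUN1, with 0 to 1 members and 58 (without wild type sample 1 without drug) to 363 genes called. With Congo Red they were -0.13 to 0.29 for LSP1 and -0.15 to 0.21 for SUR7, with 0 to 1 members and 92 (without wild type sample 3 with dye) to 446 genes called. For the difference in response they were -0.22 to 0.19 for LSP1, -0.10 to 0.050 for PIL1 and -0.087 to 0.27 for SUR7, with 0 to 3 genes called. FMP45 minus YNL194C ran from -0.21 to 0.19. What signal over background limits was not compared between the members.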
